A study of Mus musculus with 48 samples.

Results

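The genes described here were 9 Toll-like receptor (TLR) genes of the mouse, Tlr1, Tlr2, Tlr3, Tlr4, Tlr6, Tlr7, Tlr8, Tlr9 and Tlr13, together with Cd14, chosen by their symbols from the count table. They made up 10 of its 49568 genes, and each had 1 line. The cells were RAW264.7, a single mouse macrophage line that is grown in culture, and polyadenylated RNA was sequenced after 72 h. There were 8 groups: PBS alone, the synthetic peptides LE, SE and PE alone at 100 µg/ml, IFN-γ alone at 5 ng/ml (labelled IFNy), and LE+IFNy, SE+IFNy and PE+IFNy at the same doses. The peptides were copied from the same stretch of the human HLA-DR β chain, LE from an allele tied to lupus risk, SE from one tied to rheumatoid arthritis risk and PE from one tied to protection. Every group held 3 libraries named by a letter, on which the results rest, and 3 named HLA and a number.

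TLRs are receptors that recognise molecules of microbes and, in some settings, nucleic acids of the body's own cells. Tlr1, Tlr2, Tlr4 and Tlr6 act at the cell surface on lipids and lipoproteins, with Cd14 passing lipopolysaccharide to the Tlr4 complex. Tlr3, Tlr7, Tlr8, Tlr9 and Tlr13 act in endosomes on RNA or DNA. Most signal through the adaptor Myd88 to NF-κB and interferon regulatory factors, and the nucleic acid receptors Tlr7 and Tlr9 are much studied in lupus.

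Total counts were 16.5 M to 26.9 M (M for mega) per letter-labelled library and 14.1 M to 42.6 M per HLA-labelled library. The mean log2(CPM + 0.5) of 10 known IFN-γ target genes was 5.76 to 6.6 in the 12 letter-labelled libraries labelled with IFN-γ and 1.37 to 1.6 in the other 12. Among the 24 HLA-labelled libraries these targets disagreed with the label in 12: those labelled LE or PE had 6.58 to 6.86 and those labelled IFNy or SE+IFNy had 1.49 to 1.81. The macrophage markers Csf1r and Cd68 had 698 to 1190 and 1270 to 2170 CPM in the letter-labelled libraries, while the macrophage marker Mrc1 had 0.152 to 2.74 CPM. Ms4a1, Cd8a and Epcam, listed as markers of B cells, T cells and epithelial cells, were at 0 in all of them. Their lists were not at 0 throughout. The T cell marker Lck had 9.94 to 29 CPM, and the summed B cell and epithelial markers reached 0.271 and 0.667 CPM.

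Levels are given as CPM, counts per mega of the library's total count, and between genes as RPKM, which also divides by the length of the gene's exons. On the RPKM scale Cd14 stood far above the receptors in PBS, at 403 ± 11.4 (SD, n = 3). It was followed by Tlr2 at 48.8 ± 2.82, Tlr7 at 33.8 ± 8.06 and Tlr13 at 19.1 ± 3.24 RPKM. Tlr4 had 7.52 ± 1.79, Tlr6 5.47 ± 0.15, Tlr1 5.45 ± 0.37 and Tlr9 2.7 ± 0.309 RPKM. Tlr3 at 1.11 ± 0.175 and Tlr8 at 0.444 ± 0.264 RPKM came last. The neighbours Tlr6 and Tlr1 differed by less than their spread, and the range of Tlr4 (6.34 to 9.58) lay just above theirs.

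With IFN-γ the order of the receptors was another. In IFNy libraries Tlr9 had 11.6 ± 1.79 RPKM (SD, n = 3), beside Tlr13 at 13 ± 1.26 and above Tlr1 at 8.91 ± 0.51 and Tlr4 at 7.34 ± 0.923, and the ranges of Tlr9 and Tlr13 overlapped. In LE+IFNy libraries Tlr9 reached 16.4 ± 1.66 RPKM, above Tlr13 at 13.6 ± 0.0528 in every library. Tlr7 at 25.2 ± 1.25 and Tlr2 at 24 ± 0.823 RPKM overlapped there. Tlr8 was the lowest of the 10 in all 8 groups by its mean, and rested on 8 to 62 counts per library, so that its errors below are wide.

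**Figure D1:**
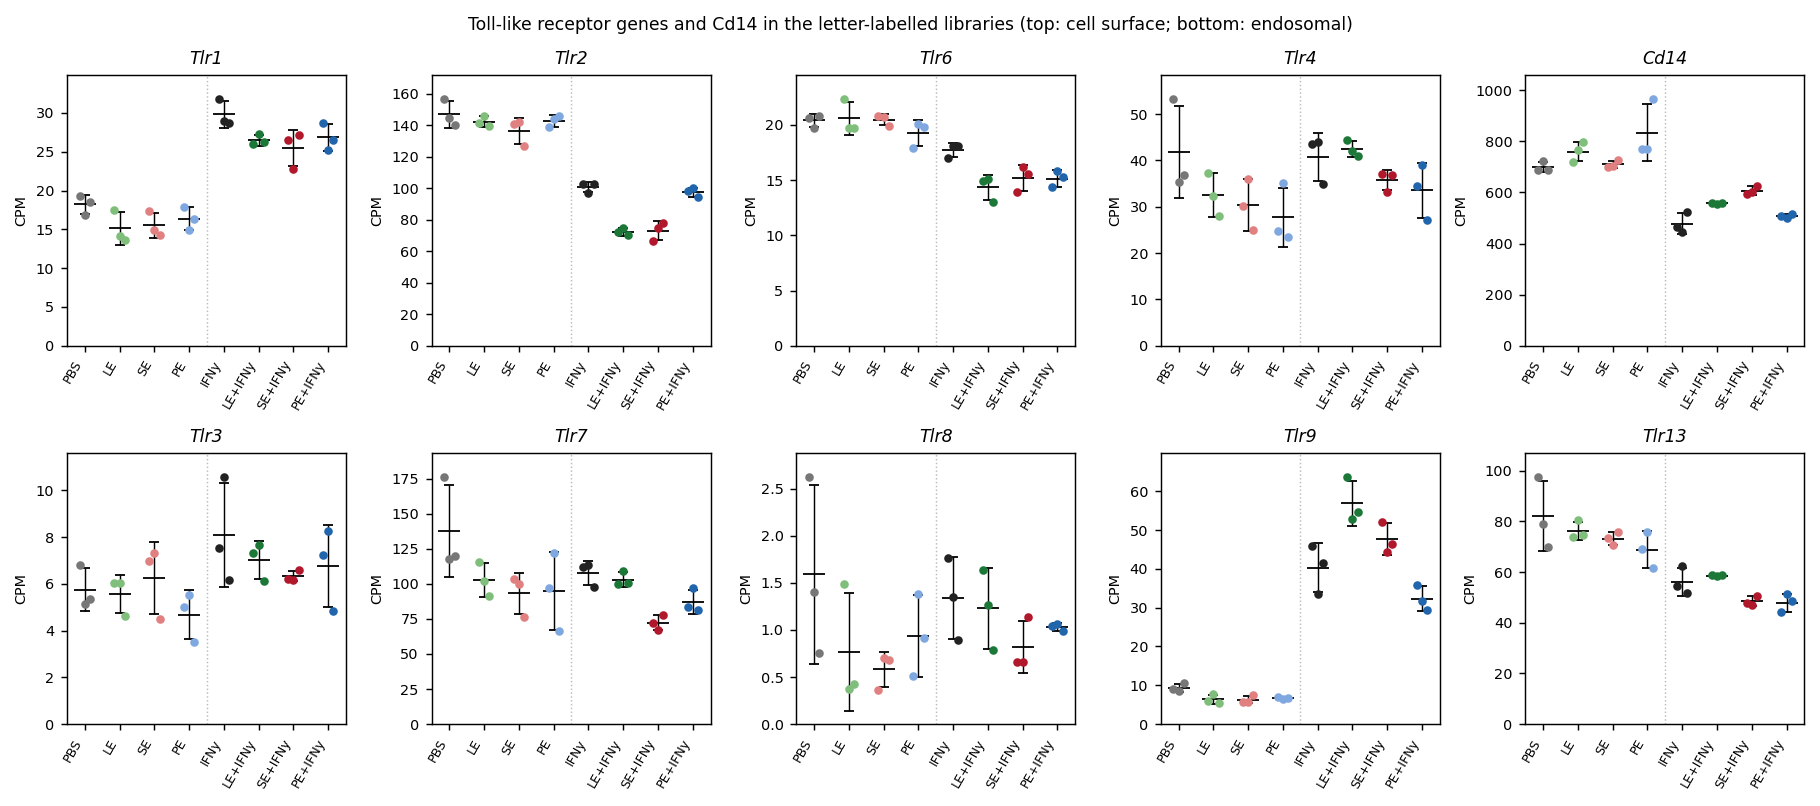
Level of each gene in CPM (vertical axis, linear, from 0) in the 24 letter-labelled libraries by group (horizontal axis); points are libraries, dashes with bars the mean ± SD of 3 libraries, and the dotted line separates groups without from groups with IFN-γ. Tlr9 and Tlr1 sit higher, and Tlr2 and Cd14 lower, in every library with IFN-γ than in any without.

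Tlr9 and Tlr1 were the members that rose with IFN-γ, and the bases upstream of their start sites are shown for that reason. Promoter windows (250 bases before to 50 after a start site, RefSeq, GRCm38.p6) of 7 of the members were searched on both strands for the interferon element ISRE (GAAA, then NN, then GAAA) and the macrophage factor PU.1 (GAGGAAG). No window of Cd14, Tlr4 or Tlr7 is reported here. The 250 upstream bases follow, read along the gene, with PU.1 matches in capitals.
Tlr9, chr9:106222348-106222597, plus strand: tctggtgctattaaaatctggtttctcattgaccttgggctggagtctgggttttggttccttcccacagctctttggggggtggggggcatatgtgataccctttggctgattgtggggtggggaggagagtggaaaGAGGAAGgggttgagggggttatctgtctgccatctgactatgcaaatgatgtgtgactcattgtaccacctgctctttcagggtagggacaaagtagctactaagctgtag
Tlr1, chr5:64933559-64933808, minus strand: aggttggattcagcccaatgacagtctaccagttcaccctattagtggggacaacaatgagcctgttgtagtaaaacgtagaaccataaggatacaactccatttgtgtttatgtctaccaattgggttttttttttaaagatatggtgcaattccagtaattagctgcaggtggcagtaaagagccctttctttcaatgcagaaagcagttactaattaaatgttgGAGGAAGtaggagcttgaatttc
Neither window held an ISRE match, which says only that these letters are not in it. The PU.1 letters began at base -112 and at base 12 of Tlr9 and at base -23 of Tlr1, counted from the start site. Among 32851 promoters of the same length 13.6% held the PU.1 letters and 3.44% ISRE. Of the other windows Tlr6 had ISRE at -116 and -110 (the 2 matches overlap) and Tlr13 had PU.1 at -83, while those of Tlr2, Tlr3 and Tlr8 and the second start sites of Tlr1 and Tlr6 held neither motif.

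The first comparison asked how IFN-γ alone changed the receptors. Tests were edgeR quasi-likelihood F tests over all genes, and a gene was called, and is said to have risen or fallen, at a Benjamini-Hochberg adjusted p under 0.05 with a fold change over 1.5. Of the 10 members, all tested, 2 rose and 0 fell between IFNy and PBS, against 18.1% of 12242 genes called. The median log2 fold change of the members was -0.21 and that of all genes tested -0.0087. In bulk RNA a lower share of cells and less RNA per cell cannot be told apart.

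Tlr9 (chromosome 9, 106222598 to 106226883, plus strand; GRCm38), the endosomal receptor for unmethylated CpG DNA, had 8.99, 8.56 and 10.6 CPM in the PBS libraries and 45.8, 33.6 and 41.6 CPM with IFN-γ. The lowest IFNy library was over 3 times the highest PBS library. The log2 fold change was 2.12 (SE 0.133, adjusted p 2.77e-07 in edgeR), or 4.35-fold. Tlr1 (chromosome 5, 64924679 to 64933563, minus strand), the partner of Tlr2 for triacylated lipopeptides, had 19.3, 16.9 and 18.5 CPM in PBS and 31.8, 29 and 28.7 CPM with IFN-γ. Its groups did not overlap, and it rose by 0.72 on the log2 scale (SE 0.0924, adjusted p 8.84e-05 in edgeR).

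Tlr2, Cd14 and Tlr13 were lower with IFN-γ past the p threshold, all under the fold minimum. Tlr2 (chromosome 3, 83836272 to 83841767, minus strand), the lipoprotein receptor, had 157, 144.6 and 140.1 CPM in PBS and 103, 97.1 and 103 CPM with IFN-γ, a log2 fold change of -0.53 (SE 0.0679, adjusted p 9.68e-05 in edgeR). Cd14 had 687, 721 and 688 CPM in PBS and 466, 443 and 524 CPM with IFN-γ, with -0.53 (SE 0.0821, adjusted p 0.000357 in edgeR). These groups did not overlap for either gene, and without IFNy replicate 3 Cd14 was called at -0.61. Tlr13, the endosomal receptor for bacterial ribosomal RNA, had 97.3, 79.1 and 69.9 CPM in PBS and 54.5, 62.3 and 51.8 CPM with IFN-γ, with -0.53 (SE 0.112, adjusted p 0.003 in edgeR). Without PBS replicate 3 Tlr13 was past the fold minimum too, at -0.63, and without IFNy replicate 2 at -0.61. Without PBS replicate 1, the highest PBS library, it was at -0.4 (adjusted p 0.00348 in edgeR).

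The other 5 members did not pass the test between IFNy and PBS. Tlr3, the receptor for double-stranded RNA, overlaps the antisense gene Gm45542, which had 0 to 6 counts per library. It had 6.8, 5.12 and 5.35 CPM in PBS and 7.54, 10.6 and 6.18 CPM with IFN-γ, with overlapping groups and a log2 fold change of 0.51 (95% confidence interval 0.0632 to 0.957). It ranged from 0.27 without IFNy replicate 2 (adjusted p 0.297 in edgeR) to 0.66 without IFNy replicate 3, where it was called, as it was without PBS replicate 1 (0.64). Tlr7, the receptor for single-stranded RNA, had 175.8, 118 and 120 CPM in PBS and 112, 113 and 97.7 CPM with IFN-γ, with -0.34 (-0.62 to -0.056). Its PBS replicate 1 stood above the other 2, and without that library the log2 fold change was -0.13. For Tlr4, the lipopolysaccharide receptor, the interval ran from -0.33 to 0.294, for Tlr6, the partner of Tlr2 for diacylated lipopeptides, from -0.39 to 0.0247, and for Tlr8, which also binds RNA, from -1.14 to 0.662.

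Marker genes of cell types were summed beside these results. The summed level of 6 T cell markers was 10.7 to 19.8 CPM without and 17.1 to 29.4 CPM with IFN-γ, nearly all from Lck, while Cd8a was at 0. The summed level of 8 macrophage markers was 9030 to 11300 CPM without and 6390 to 8710 CPM with IFN-γ. The part of this shift in the lower levels of Tlr2, Tlr13 and Cd14 was not tested. Lyz2 had the highest level of the 8 markers, with a median of 5010 CPM over the letter-labelled libraries.

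Next came each peptide by itself against PBS, which asks whether a peptide acts on the receptors with no IFN-γ present. No member was called by edgeR for LE (against 0.0242% of 12420 genes), for SE (1.93%) or for PE (3.13%). An unadjusted p under 0.05 was found for 1, 4 and 4 members, beside 1953, 3975 and 4405 of the 12420 genes. DESeq2 also called 0 members for each peptide. Tlr9 had 5.92, 7.79 and 5.42 CPM with LE, 5.79, 5.79 and 7.39 CPM with SE and 6.88, 6.44 and 6.79 CPM with PE. All 9 values lay under the lowest PBS library of 8.56 CPM, which the 3 comparisons share. The log2 fold changes were -0.51, -0.49 and -0.4, with edgeR adjusted p values of 0.225, 0.0545 and 0.093. Cd14 with PE had 769, 769 and 964 CPM, above all PBS libraries, and was past the p threshold at 0.35 (SE 0.0939, adjusted p 0.0221 in edgeR). Without PE replicate 3, the library at 964 CPM, the value was 0.21 (adjusted p 0.0883 in edgeR), and with the trend over transcript length subtracted it was 0.18.

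Tlr7 and Tlr4 were also lower by value in each peptide group. Tlr7 had log2 fold changes of -0.37, -0.49 and -0.45 for LE, SE and PE, and Tlr4 of -0.31, -0.39 and -0.5, with edgeR adjusted p values from 0.0507 to 0.366. In both, PBS replicate 1 stood highest, with 175.8 CPM of Tlr7 and 53.2 CPM of Tlr4 against 35.3 and 36.9 CPM of Tlr4 in the other PBS libraries. Without it Tlr4 was at -0.11, -0.18 and -0.3 for LE, SE and PE and Tlr7 at -0.17, -0.28 and -0.24, so that this 1 library moved each of the 6 values by over 1.5 times. Without PE replicate 2, in contrast, Tlr4 (-0.69) and Tlr7 (-0.65) were called for PE, and without PBS replicate 2 Tlr4 was called at -0.61. Tlr8 had a log2 fold change of -1.42 for SE (SE 0.566, adjusted p 0.101 in edgeR), from 8 to 62 counts per library over all groups, was called without the filter on low counts and in 1 fit of all 8 groups (-1.42 and -1.41), and ranged from -1.74 to -0.85 when any 1 library was left out.

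The study's Model A compares each peptide with IFN-γ against IFN-γ alone. In it 0 of the 10 members were called for LE, SE or PE, by edgeR and by DESeq2, against 15.5%, 7.4% and 0.629% of 12720 genes. At an unadjusted p under 0.05 there were 4, 8 and 5 members, beside 7116, 5386 and 3580 of the 12720 genes. The members past the p threshold at a fold under 1.5 were Tlr2, Tlr6, Tlr9 and Cd14 for LE, Tlr2, Tlr7 and Cd14 for SE, and Tlr7 for PE. The members' median log2 fold changes were -0.077, -0.2 and -0.22, and those of all genes -0.01, -0.0061 and -0.0042.

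**Figure D2:**
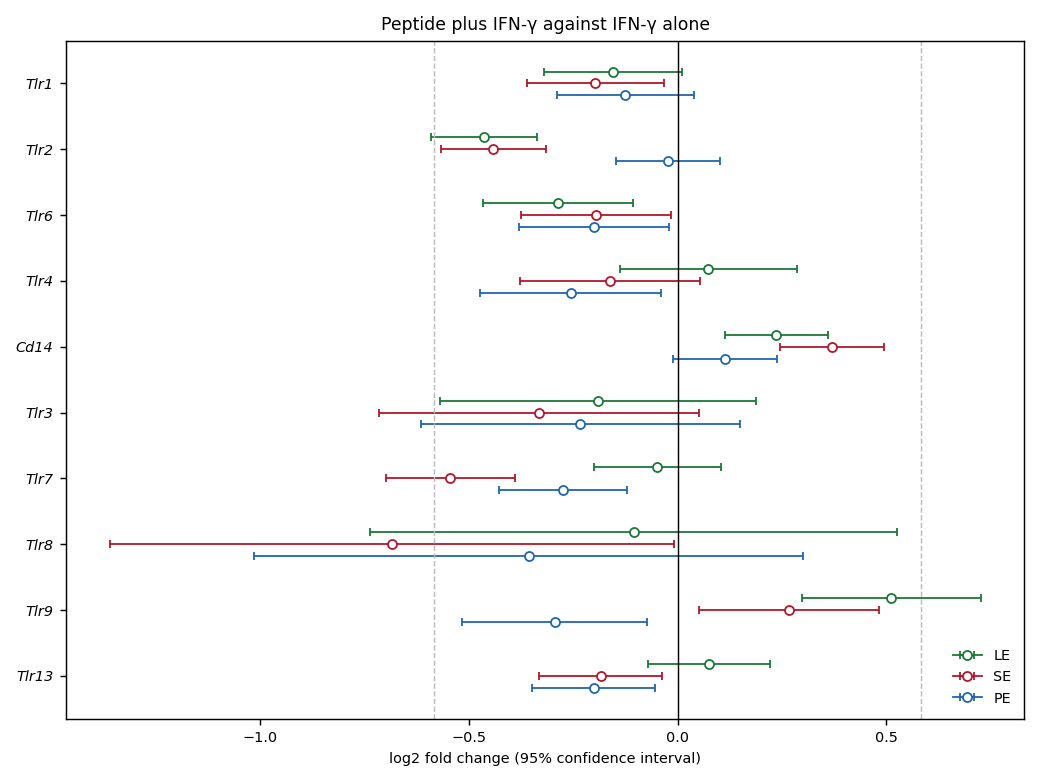
log2 fold change (horizontal axis) of each gene for each peptide plus IFN-γ against IFN-γ alone, with 95% confidence intervals from the edgeR fit of 4 groups of 3 letter-labelled libraries; open points are genes not called and dashed lines mark a fold change of 1.5. Tlr9 lies at 0.51 for LE and -0.29 for PE, and Tlr2 at -0.46 and -0.44 for LE and SE but -0.022 for PE.

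Tlr9 was the member that was called between 2 peptides. With LE+IFNy it had 63.5, 52.7 and 54.5 CPM, all above the IFNy libraries (33.6 to 45.8 CPM), a log2 fold change of 0.51 (SE 0.102, adjusted p 0.000419 in edgeR). Without IFNy replicate 1 it passed the fold minimum as well, at 0.61. With SE+IFNy it had 52.2, 44.2 and 46.3 CPM, which overlapped IFNy, with 0.27 (SE 0.103, adjusted p 0.054 in edgeR). With PE+IFNy it had 35.8, 31.7 and 29.3 CPM, which also overlapped IFNy, with -0.29 (SE 0.105, adjusted p 0.0782 in edgeR). Without IFNy replicate 2, the lowest IFNy library, Tlr9 was at 0.39 for LE, 0.15 for SE and -0.42 for PE. The edgeR adjusted p values were then 0.00205, 0.26 and 0.00989, so that PE was past the p threshold, under the fold minimum.

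The peptides were then set against each other at the same dose and time in the presence of IFN-γ, for 3 pairs. Between LE+IFNy and PE+IFNy 1 member was called, against 21.7% of all genes: Tlr9 was higher with LE by 0.81 on the log2 scale (SE 0.104, adjusted p 3.23e-06 in edgeR), and its 3 libraries with LE all lay above the 3 with PE. Between LE+IFNy and SE+IFNy 0 members were called, against 4.93% of all genes. At an unadjusted p under 0.05 there were 5 members, beside 5751 of 12720 genes, and 2 members, Tlr7 and Tlr13, were past the p threshold. Tlr9 differed by 0.25 between LE and SE with an interval of 0.0342 to 0.458 (adjusted p 0.0654 in edgeR). Between SE+IFNy and PE+IFNy 0 members were called (7.6% of all genes, 4 members past the p threshold), and Tlr9 was higher with SE by 0.56 (SE 0.104, adjusted p 0.000443 in edgeR), just under the fold minimum. Without SE+IFNy replicate 2 or 3 or PE+IFNy replicate 1 it was past it, at 0.61, 0.59 and 0.64.

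Tlr2 was lower with LE and with SE than with PE or with IFN-γ alone, under the fold minimum. It had 72, 75.1 and 70.2 CPM with LE+IFNy, 66.4, 74.6 and 78 CPM with SE+IFNy, and 98.1, 99.99 and 94.5 CPM with PE+IFNy. The libraries with LE or SE all lay under those with PE and those with IFN-γ alone. Against IFN-γ alone the log2 fold changes were -0.46 (SE 0.06, adjusted p 5.3e-06 in edgeR) and -0.44 (SE 0.0601, adjusted p 2.05e-05 in edgeR), and for PE -0.022 with an interval of -0.15 to 0.103. LE and SE differed by -0.022 (interval -0.15 to 0.105), while LE against PE was at -0.44 (adjusted p 6.39e-06 in edgeR) and SE against PE at -0.42 (adjusted p 3.77e-05 in edgeR). Tlr6 went in the same direction, at -0.29 for LE (adjusted p 0.00927 in edgeR), -0.2 for SE and -0.2 for PE, and no pair of peptides passed the test for it.

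Tlr7 showed another order of the peptides. It had 99.7, 109 and 100.6 CPM with LE+IFNy, 72.1, 67.4 and 77.9 CPM with SE+IFNy and 83.6, 97.1 and 81.3 CPM with PE+IFNy. The SE libraries were the lowest and overlapped neither of the others. Against IFN-γ alone Tlr7 was lower with SE, at -0.55 (SE 0.0733, adjusted p 1.81e-05 in edgeR) and with PE, at -0.27 (adjusted p 0.0266 in edgeR), and for LE the difference was -0.048 (interval -0.2 to 0.104). Without IFNy replicate 3 or SE+IFNy replicate 3 the value for SE passed the fold minimum, at -0.59 and -0.6. LE was higher than SE by 0.5 (SE 0.0732, adjusted p 0.000113 in edgeR) and higher than PE by 0.23 (adjusted p 0.0123 in edgeR).

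The ratio of Tlr9 to Tlr7, both in RPKM, put these patterns side by side as a description. It was 0.083 ± 0.0219 in PBS (SD, n = 3), 0.442 ± 0.0827 in IFNy, 0.651 ± 0.0908 in LE+IFNy, 0.773 ± 0.0758 in SE+IFNy and 0.436 ± 0.0604 in PE+IFNy. The libraries with LE or SE plus IFN-γ, from 0.568 to 0.85, lay above those with IFN-γ alone or with PE, from 0.347 to 0.502. Against IFN-γ alone, the ratio in SE+IFNy came with less Tlr7 (log2 fold change -0.55) and, by value, more Tlr9 (0.27, not past the p threshold). That in LE+IFNy came with more Tlr9 (0.51), with Tlr7 at -0.048.

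Cd14 was higher with each of LE and SE than with IFN-γ alone. It had 559, 555 and 559 CPM with LE+IFNy, 593, 600 and 627 CPM with SE+IFNy, and 509, 499.5 and 514 CPM with PE+IFNy, against 443 to 524 CPM with IFN-γ alone. The log2 fold changes were 0.24 (SE 0.0589, adjusted p 0.00263 in edgeR), 0.37 (SE 0.0589, adjusted p 0.000104 in edgeR) and 0.11 (adjusted p 0.217 in edgeR). With the length trend subtracted the value for LE was 0.36. SE was higher than PE by 0.26 (adjusted p 0.00259 in edgeR), and LE differed from SE by -0.13 (interval -0.26 to -0.0096, adjusted p 0.0862 in edgeR). Every level with a peptide and IFN-γ stayed under the lowest Cd14 level without IFN-γ, 687 CPM.

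Tlr13 and Tlr4 were higher with LE+IFNy than with PE+IFNy, at folds under 1.5. Tlr13 had 58.7, 58.3 and 58.8 CPM with LE+IFNy, 47.8, 47.1 and 50.7 CPM with SE+IFNy and 44.2, 51.2 and 48.4 CPM with PE+IFNy. LE was above both by 0.26 (adjusted p 0.00827 in edgeR) and 0.28 (adjusted p 0.00239 in edgeR). Tlr4 had 44.4, 42.1 and 41 CPM with LE+IFNy and 34.4, 39 and 27.2 CPM with PE+IFNy, with 0.33 (adjusted p 0.00993 in edgeR). Without PE+IFNy replicate 3 the Tlr4 value was 0.21 and did not pass the test (adjusted p 0.063 in edgeR). Without PE+IFNy replicate 2 it was 0.45 (adjusted p 0.00111 in edgeR). Tlr1, Tlr3 and Tlr8 passed the test in none of the Model A comparisons and in none of the 3 pairs.

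Model B, the other model of the study, compares each peptide plus IFN-γ with that peptide alone. For LE 3 members were called (35.1% of 12947 genes), for SE 4 (26.4%) and for PE 4 (21%). Tlr9 and Tlr1 rose and Tlr2 fell for each peptide. Tlr9 rose by 3.13, 2.87 and 2.22 on the log2 scale for LE, SE and PE (SE 0.124, 0.125 and 0.125, adjusted p at most 6.98e-12 in edgeR), and Tlr1 by 0.78, 0.67 and 0.66 (adjusted p at most 2.08e-05 in edgeR). Tlr2 fell by 0.999 for LE, by 0.94 for SE and by 0.6 for PE (adjusted p at most 3.93e-08 in edgeR).

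Tlr13 fell for SE by 0.63, and Cd14 for PE by 0.77 (adjusted p 1.1e-07 and 7.72e-08 in edgeR). The same gene was lower under the fold minimum for the other peptides, Tlr13 at -0.4 for LE and -0.57 for PE, and Cd14 at -0.47 for LE and -0.27 for SE, all past the p threshold. With the trend over transcript length subtracted these Cd14 values were -0.25 and -0.12. For PE, single libraries moved these calls. Tlr13 was called without PE replicate 3, PE+IFNy replicate 2 or PE+IFNy replicate 3 (-0.59 to -0.63) and Tlr3 without PE+IFNy replicate 3 (0.65), whereas Tlr1 was under the fold minimum without PE replicate 2 (0.57) and Tlr2 without PE replicate 3 (-0.57). For LE, Tlr8 was at 0.64 (SE 0.435, adjusted p 0.204 in edgeR), from 0.302 to 1.6 when any 1 library was left out, and was called only at 1.6, without LE replicate 1.

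**Figure D3:**
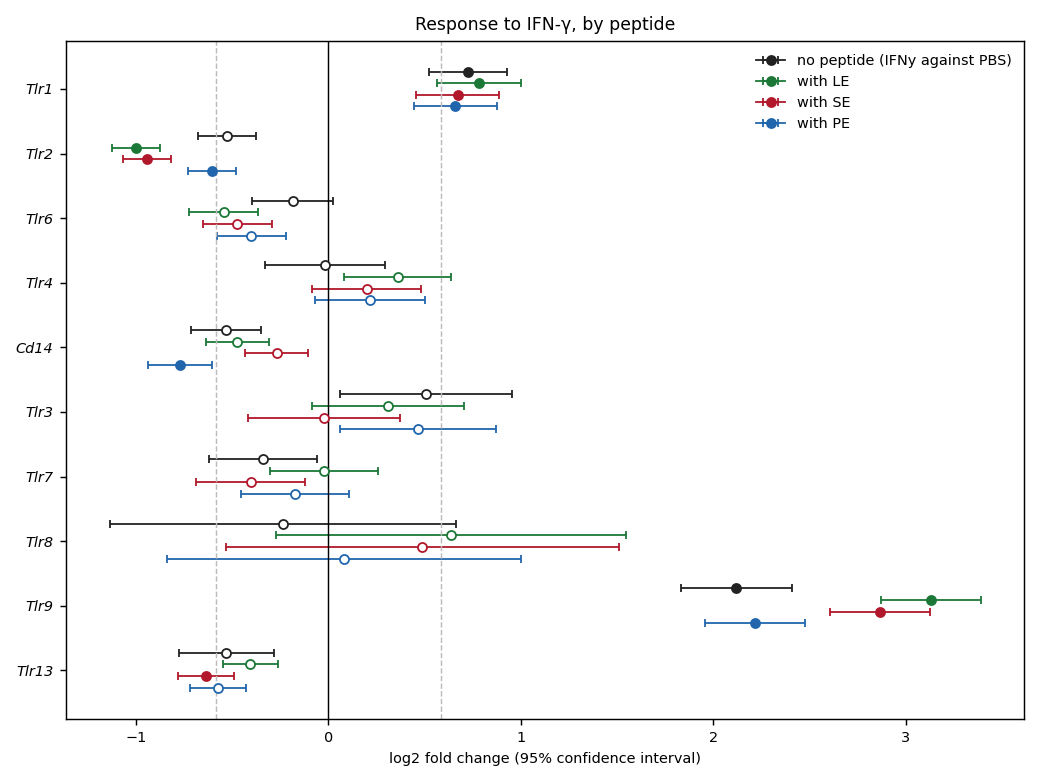
log2 fold change (horizontal axis) of each gene with IFN-γ against without it, in the absence of peptide and with each peptide, with 95% confidence intervals from edgeR fits of letter-labelled libraries (3 per group); filled points are called genes and dashed lines mark a fold change of 1.5. The Tlr9 response is 2.12 without peptide, 3.13 with LE, 2.87 with SE and 2.22 with PE.

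Whether a peptide changed the size of the IFN-γ response was tested as an interaction in a fit of all 8 groups. For LE 1 member was called, against 18.9% of 13096 genes, for SE 1 (7.96%) and for PE 0 (0%; 1073 genes at an unadjusted p under 0.05, and 0 called by DESeq2). The called member was Tlr9 for both. Its response was larger with LE by 1.01 on the log2 scale (SE 0.188, adjusted p 0.000188 in edgeR) and with SE by 0.75 (SE 0.189, adjusted p 0.00623 in edgeR), and with PE the interaction was 0.091 with an interval of -0.3 to 0.481. For PE, Cd14 was the 1 member at an unadjusted p under 0.05, at -0.25. These values also hold the levels without IFN-γ, where LE and SE had less Tlr9 than PBS by value. The LE interaction was 0.891 to 1.18 when any 1 library was left out, and the SE interaction 0.635 to 0.898.

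The Tlr2 interactions were -0.47 for LE (SE 0.0836, adjusted p 0.000107 in edgeR) and -0.41 for SE (SE 0.0837, adjusted p 0.00117 in edgeR), past the p threshold but not the fold minimum, and -0.084 for PE (interval -0.26 to 0.0879). Tlr6 had -0.36 for LE (adjusted p 0.0158 in edgeR). Tlr8 had 0.88 for LE (SE 0.633, adjusted p 0.293 in edgeR), from 0.32 to 1.83 when any 1 library was left out, and was called only at 1.83, without LE replicate 1.

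Other genes of TLR signalling were counted by lists, against 18.1% of all genes called for IFN-γ alone and 15.5%, 7.4% and 0.629% for LE, SE and PE in Model A. Of 16 listed cytokine and enzyme genes that TLR signals induce, 9 were tested and 9 rose with IFN-γ alone (median log2 fold change 2.44). Among them were Il6 at 4.21, Nos2 at 3.81 and Ptgs2 at 3.73 on the log2 scale. The listed genes not tested did not pass the filter on low counts, and high counts in 1 group are enough to pass it. Il6 had 0.195 CPM in PBS and 3.55 CPM in IFNy, so the counts of tested genes are not shares of the whole list. In Model A, 10 of 11 tested rose with LE (median 1.77), 8 of 11 with SE (median 1.34) and 1 of 11 with PE (median 0.168). The largest for LE were Il1a at 2.93, Il1b at 2.27 and Cxcl2 at 2.2, and for SE Ccl5 at 3.34, Il1b at 2.57 and Il1a at 1.55, while Ccl5 was the gene called for PE, at 0.88. Il1a and Il1b had few counts, at 0.337 ± 0.158 and 0.21 ± 0.196 CPM in IFNy (SD, n = 3), against 2.5 and 0.956 CPM in LE+IFNy. The 95% intervals of Il1b were 1.15 to 3.39 with LE and 1.49 to 3.66 with SE. Cxcl2 went from 38.4 ± 7.94 CPM in IFNy to 175 ± 15.2 CPM with LE, and Ccl5 from 8.17 ± 0.641 CPM to 81.2 ± 7.73 CPM with SE. These genes code for inflammatory cytokines and chemokines, for the nitric oxide synthase Nos2 and for the prostaglandin synthase Ptgs2.

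Among the 10 tested accessory proteins and chaperones, 2 rose with IFN-γ alone, the scavenger receptor Cd36 (2.44) and the invariant chain Cd74 (2.31). Cd36 rose further with LE (1.12) and SE (0.76). Hsp90b1, the endoplasmic reticulum chaperone that most TLRs need to fold, fell by 0.9 with LE and by 0.71 with SE, and Nrros, a TLR-binding protein of the endoplasmic reticulum, fell by 0.6 with LE. Unc93b1 and Myd88 are named for their roles and were chosen after their values were seen. Unc93b1, which carries the nucleic acid receptors to endosomes, was at 0.3 with IFN-γ alone and at 0.041 for LE in Model A. For PE, 0 of 10 were called.

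Of the 6 adaptor genes, Ticam1, the adaptor of Tlr3 and Tlr4, rose with IFN-γ alone (0.61), with LE (0.61) and with SE (0.67), and Tirap, which bridges Tlr2 and Tlr4 to Myd88, fell by 0.87 with IFN-γ alone. Myd88 itself was lower under the fold minimum with LE at -0.48 and with SE at -0.27. Of 16 kinases and ubiquitin ligases 1 rose (Peli1, 0.88) and 1 fell (Ikbke, by 0.85) with IFN-γ alone, while 3 rose with LE (Irak2 at 0.84, Peli1 at 0.75 and Tab3 at 0.61) and 1 with SE (Irak2, 0.7). For PE, 0 adaptors and 0 kinases were called.

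Of 10 transcription factors 2 rose and 2 fell with IFN-γ alone, with Irf7 at 0.91, Jun at -1.5 and Fos at -1.08. Irf7, the factor downstream of endosomal TLRs, rose further with LE (1.02) and SE (1.25), and Rel rose with LE (0.81). Jun was higher with LE (0.95) and SE (0.71) than with IFN-γ alone, at 62.3 and 52.3 CPM, which lay between its 32.6 CPM in IFNy and 93.6 CPM in PBS. Of 13 inhibitors 3 rose and 3 fell with IFN-γ alone, with Socs1 at 2.37, Dusp1 at 1.41 and Sigirr at 1.33. In Model A 3 rose and 1 fell with LE (the largest changes being Dusp1 at 2.21, Tnfaip3 at 1.52 and Zfp36 at 0.9), 3 rose with SE (Dusp1 at 1.76, Tnfaip3 at 1.29 and Zfp36 at 0.89) and 1 rose with PE (Sigirr, 0.8). Of 5 endosomal proteases Ctsk fell by 2.79 with IFN-γ alone and Lgmn rose with LE (0.7).

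Of the 16 kinases 12.5% were called for IFN-γ alone and 18.8% and 6.25% for LE and SE, against 18.1%, 15.5% and 7.4% of all genes. With 5 to 16 genes in a list, 1 gene is 6.25% to 20% of it.

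The median log2 fold changes of these lists stand beside all-gene medians of -0.0087 for IFN-γ alone and -0.01, -0.0061 and -0.0042 for LE, SE and PE in Model A. In that order of comparisons they were 0.327, -0.053, -0.098 and 0.025 for the accessory proteins, and 0.0242, -0.14, -0.12 and -0.1 for the adaptors. The kinases had -0.042, 0.168, -0.022 and -0.12, the transcription factors -0.12, 0.191, 0.172 and -0.091, the inhibitors 0.327, 0.0236, 0.0525 and 0.0209, and the proteases -0.19, 0.309, 0.275 and -0.039. In Model B 11 of the 16 listed cytokine and enzyme genes passed the filter. Of these, 11, 11 and 10 rose for LE, SE and PE, against 35.1%, 26.4% and 21% of all genes called. A called positive interaction was found for 7, 5 and 0, against 18.9%, 7.96% and 0% of all genes called. High counts in 1 group were enough to pass the filter, so these counts are not shares of the whole list. With the peptides alone 0, 2 and 1 of 8 tested rose against PBS, where 0.0242%, 1.93% and 3.13% of all genes were called. Between LE+IFNy and SE+IFNy, 3 were higher and 1 lower with LE, against 4.93% of all genes called. The lower one was Ccl5 at -1.38, a gene picked here with its value known.

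The mouse receptor genes outside the 10 members were close to absent. Tlr11 had 0 counts in every letter-labelled library and Tlr5 0 or 1. Tlr12 had 0 or 1 count in the 12 libraries without IFN-γ and 7, 9 and 10 counts in those with IFN-γ alone, 3 to 5 with LE+IFNy, 2 to 6 with SE+IFNy and 2 to 9 with PE+IFNy. None of these 3 genes passed the filter on low counts, and no test was made. Where a count was 0, up to 3 counts in that library cannot be told apart from none.

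The genes whose pattern was most like that of a member were found by Pearson's correlation of log2(CPM + 0.5) over the 24 letter-labelled libraries, among 8619 genes, as a description. For Tlr9 they were C3 (0.992) and Lpl (0.989), for Tlr1 Zfp346 (0.965) and Fam26f (0.959), and for Tlr2 Hsd17b4 (0.985) and Cdc42se1 (0.985). Cd14 was most like Uqcrh (0.959) and Ckb (0.957), and Tlr7 most like Tmx1 (0.956) and Tm9sf3 (0.949). Among the members Tlr1 and Tlr9 had 0.927, Tlr2 and Tlr6 0.906 and Tlr2 and Tlr9 -0.934. These libraries share their groups and depths.

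The HLA-labelled libraries are described by their labels, which went against the IFN-γ targets in 12 of them. The libraries labelled LE had 28.9 to 34.5 CPM of Tlr9, those labelled PE 30.1 to 40.9, those labelled LE+IFNy 28.3 to 31 and those labelled PE+IFNy 37.3 to 40.6. The libraries labelled PBS had 7.31 to 8.62 CPM of Tlr9, those labelled SE 7.44 to 9.51, those labelled IFNy 5.61 to 8.23 and those labelled SE+IFNy 7.91 to 9.7. Tlr9 was thus high in the libraries with high IFN-γ targets and low in the others, whatever the label. Tlr4 had 99.2 to 162 CPM in the HLA-labelled and 23.4 to 53.2 CPM in the letter-labelled libraries, with no overlap, and Tlr8 had 1.84 to 15 CPM against 0.367 to 2.62. With both label series in 1 fit and the series as a term, 0 members were called between IFNy and PBS, and the Tlr9 interaction for LE turned to -0.34. The cause was not tested.

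**Figure D4:**
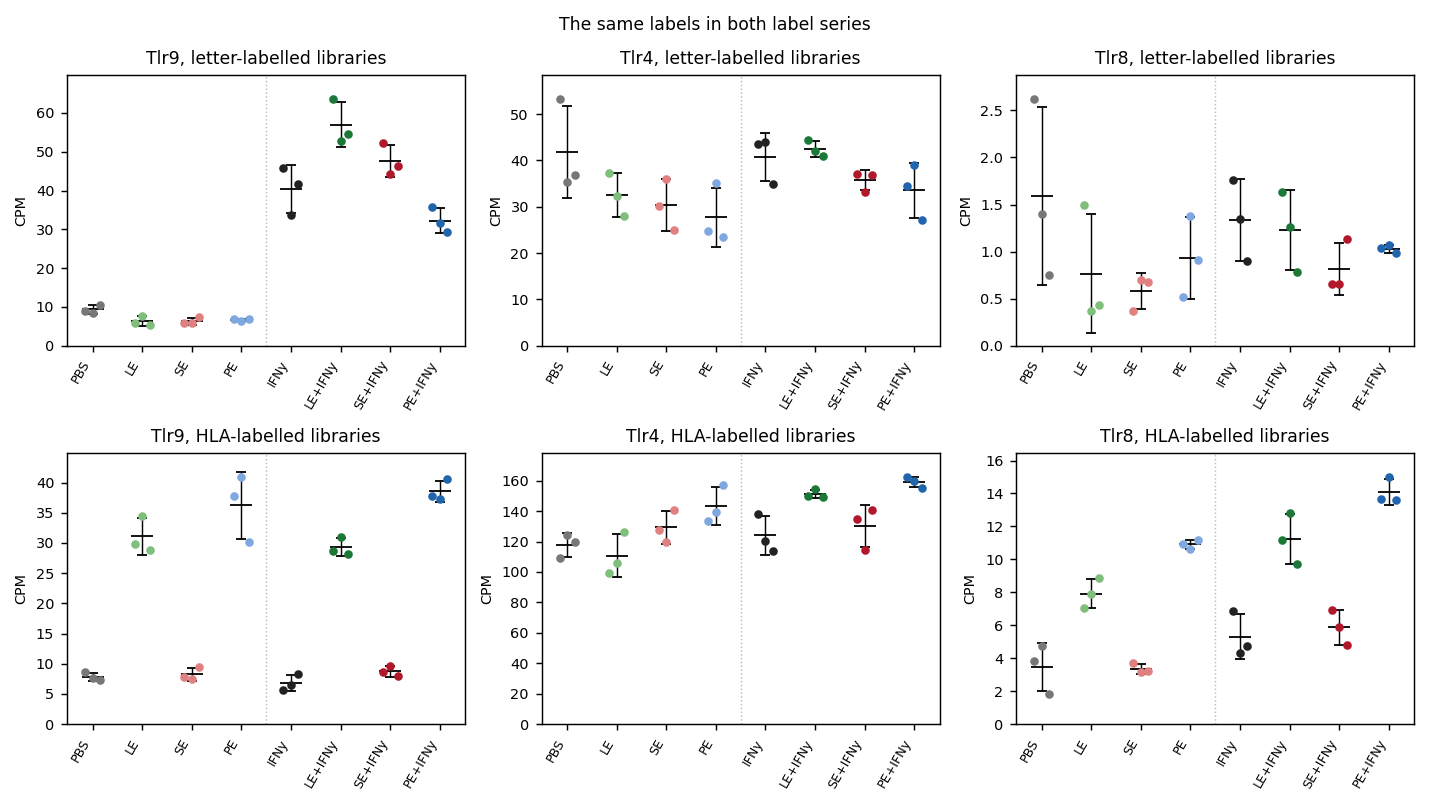
Level in CPM (vertical axis, linear, from 0, with its own range in each panel) of Tlr9, Tlr4 and Tlr8 by label (horizontal axis) in the letter-labelled libraries (top) and the HLA-labelled libraries (bottom); points are libraries and dashes with bars the mean ± SD of 3. Tlr9 is at 28.3 CPM or more in the HLA-labelled libraries labelled LE, PE, LE+IFNy or PE+IFNy and at 9.7 CPM or less in the others, and Tlr4 is higher throughout the HLA-labelled series.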

How the data were processed

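RAW264.7 RNA was sequenced as stranded poly(A) libraries with single-end reads of 100 bases, in 8 groups of 3 letter-labelled and 3 HLA-labelled libraries. The authors deposited raw read counts per gene, which per their methods are uniquely mapped reads counted with featureCounts on a GENCODE annotation of GRCm38.p5. They tested them with DESeq2 1.16.1 in R 3.4.1, and the aligner is not given in the sources used here. Counting unique reads can lower genes with close copies, such as Tlr1 and Tlr6. The groups are separate libraries, which a figure legend of the study calls biological replicates from 2 independent experiments. The labels do not say which libraries belong to which experiment, so the p values may measure spread within 1 experiment. No 2 letter-labelled libraries of a group agreed within sampling noise (chi-square per degree of freedom at least 3.89).

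The counts were tested with edgeR 4.0.16 (TMM, filterByExpr, quasi-likelihood F test) in R 4.3.3, on letter-labelled libraries: IFNy and PBS, 4 groups without IFN-γ, 4 groups with it (Model A and peptide pairs), 6 groups (Model B) and 8 groups (interactions). Log2 fold changes are unshrunk. RPKM used exon lengths of GENCODE M21. Every member was named in every comparison, and from each pathway list up to 3 called genes with the largest change. The members and lists were chosen with earlier results of these data known. The script was tested on simulated data.

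The replicate numbers were checked as pairs by the correlation of same-numbered libraries' deviations from their group means: every pair was over 0.1 between LE+IFNy and IFNy alone (lowest 0.11), and elsewhere the lowest was -0.2 to 0.0997. Alternatives were other size factors, DESeq2 1.42.0, no filter, the replicate block, each library left out, 1 fit of all groups, both label series and a subtracted transcript length trend. One promoter motif that was searched, with its matches, and one marker gene are not reported here.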

Additional observations from a re-analysis of the deposited data

Results flagged for a closer look

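The size of the Tlr9 response to IFN-γ differed between the presence and absence of LE, and of SE, by the interaction term of the edgeR fit. It was larger with LE by 1.01 on the log2 scale (SE 0.188, adjusted p 0.000188 in edgeR) and with SE by 0.75 (SE 0.189, adjusted p 0.00623 in edgeR). All 3 LE+IFNy libraries lay above the highest IFNy library, and 2 of the 3 SE+IFNy libraries did. Of all genes 18.9% and 7.96% were called for these 2 interactions, and for PE the Tlr9 interaction was 0.091. The values also hold Tlr9 with the peptide alone against PBS, at -0.51 for LE and -0.49 for SE, neither called. With IFN-γ present, SE against IFN-γ alone was at 0.27 (adjusted p 0.054 in edgeR).

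In the HLA-labelled libraries, which the main tests did not use, Tlr8 and Tlr9 stood at over 2 times the mean of the HLA-labelled PBS libraries, with no overlap, under 4 labels. The mean of Tlr9 was 31.1 CPM under the label LE, 36.2 under PE, 29.3 under LE+IFNy and 38.6 under PE+IFNy. The mean of Tlr8 was 7.93 CPM under LE, 10.9 under PE, 11.2 under LE+IFNy and 14.1 under PE+IFNy. The libraries labelled LE or PE also had high IFN-γ targets (6.58 to 6.86 as a mean log2 level), against their label.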

How the results depend on the processing

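Counts of called members were within 1.5 times the main count under the size factors of DESeq2, DESeq2 itself and the replicate block, in which Tlr9 had 0.52 for LE in Model A, and the block changed no member's call. Both label series in 1 fit, with the series as a term, gave 0 called members for IFNy against PBS, 1 (Tlr9) for LE in Model A, 1 (Tlr8) for LE+IFNy against SE+IFNy, 0 against PE+IFNy, 1 (Tlr8) for SE+IFNy against PE+IFNy, 0, 0 and 1 (Cd14) for LE, SE and PE in Model B, and 0 for the LE and SE interactions. Tlr9 turned from higher to -0.0034 for LE+IFNy against PE+IFNy and to -0.34 for the LE interaction in that fit. The 12 HLA-labelled libraries with IFN-γ targets against their label enter it, and the cause was not tested. SE against PBS had 1 member (Tlr8) without the filter and in 1 fit of all 8 groups, and SE+IFNy against PE+IFNy 1 (Tlr9) with the length trend subtracted, which also added Tlr13 for PE in Model B (-0.59). Across genes, log2 fold changes went with transcript length at Spearman correlations from -0.45 to 0.354.

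Leaving out 1 library gave 2 to 4 called members for IFNy against PBS, 0 to 2 for PE against PBS, 0 to 1 for LE and for SE in Model A, 0 to 1 for SE+IFNy against PE+IFNy, 3 to 4, 4 to 4 and 3 to 6 for LE, SE and PE in Model B, and 1 to 2 for the LE interaction. Cd14 was called for IFNy against PBS without IFNy replicate 3 (-0.61). Tlr9 passed in each comparison where it was called with any 1 letter-labelled library left out. Depth limits Tlr8, at 8 to 62 counts per letter-labelled library, most.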
